A study of Homo sapiens with 10 samples.

Results

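The FOS family comprises FOS, FOSB, FOSL1 and FOSL2, 4 genes whose leucine zipper proteins pair with a JUN protein to form the transcription factor AP-1. Their members here are the ZEB1 sites at these genes: rows of the deposited count table whose midpoint lay in the RefSeq gene or within 20 kb of either end of it. This gave 38 of the 52981 consensus sites, 7 at FOS, 9 at FOSB, 17 at FOSL1 and 5 at FOSL2, and all 38 passed the filter on low counts that 46436 sites of the table passed. The method is given as CUT&RUN, in which nuclei receive an antibody, here against ZEB1, and it recruits a nuclease that cuts the bound DNA free for sequencing. The sample descriptions also name the transposase Tn5, so the enzyme used was not settled here. The cells carry the name MDA in the labels and are described there as human, from breast cancer and Er-/Pr-/Her2-. Cells were untreated (line label MDA_Parental, no time given) or received 300 nM of the microtubule inhibitor eribulin over 24, 48 or 72 h (line label MDA_ERI). The labels do not say how the 2 line names are related, so drug, time in culture and line cannot be told apart. There were 2 ZEB1 libraries in each of the 4 conditions, and 2 IgG libraries were not analysed here.

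FOS and FOSB are immediate early genes: serum, growth factors and stress switch them on within minutes through serum response factor with its ELK partners and through CREB, and they fall silent again soon after. FOSL1 (FRA1) and FOSL2 (FRA2) are the slower Fos-related antigens, which lack the strong transactivation domain of FOS, and FOSL1 is known for its abundance in mesenchymal breast cancer cells. ZEB1 is a zinc finger repressor that binds E-boxes and drives the epithelial-mesenchymal transition. The series title places the experiment in work on the reverse transition. The files hold occupancy and no expression, so the RNA of these genes and the identity of the line could not be checked against markers.

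The 4 genes were chosen by their measured ZEB1 counts, since sites at FOS and FOSB were among those furthest below control at 24 h, so the changes below are a description of these libraries and rest on no test. Library totals in consensus sites ran from 1130706 to 3561455 counts. Within each condition the counts of the 2 libraries agreed to within sampling noise (chi-square per degree of freedom from 0.830 to 0.951) and were counted as 1 sample. No value therefore has a replicate check between cultures, and 95% intervals cover counting error only. Site values are CPM, counts scaled to a common library total, of the pooled pair after TMM scaling, a method that assumes most sites keep their level. A site is called lower or higher when its CPM ratio reached 2-fold, a log2 change of 1.

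The sequences just upstream of 3 of the start sites are shown because a ZEB1 site overlapped each, in full or in part. They also share a short motif at nearly the same place. They are the 250 bases before each RefSeq start (GRCh38.p14, plus strand), at chr14:75278578-75278827 for FOS, chr19:45467746-45467995 for FOSB and chr2:28392608-28392857 for FOSL2. The table held no entry for FOSL1. Capitals mark matches to TGACGT, the core of the cyclic AMP response element bound by CREB and ATF proteins, and to CACCT, the core of the ZEB1 E-box, searched on both strands (AGGTG is CACCT on the other strand).
FOS: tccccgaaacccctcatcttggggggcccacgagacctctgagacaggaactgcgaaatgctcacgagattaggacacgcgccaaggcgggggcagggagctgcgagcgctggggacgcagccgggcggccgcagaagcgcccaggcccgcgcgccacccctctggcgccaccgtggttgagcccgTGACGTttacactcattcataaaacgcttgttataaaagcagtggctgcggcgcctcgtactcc
FOSB: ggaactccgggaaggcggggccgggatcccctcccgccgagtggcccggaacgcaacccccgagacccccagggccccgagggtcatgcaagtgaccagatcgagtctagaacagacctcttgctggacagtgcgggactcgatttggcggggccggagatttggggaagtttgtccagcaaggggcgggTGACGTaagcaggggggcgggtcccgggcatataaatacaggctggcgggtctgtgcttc
FOSL2: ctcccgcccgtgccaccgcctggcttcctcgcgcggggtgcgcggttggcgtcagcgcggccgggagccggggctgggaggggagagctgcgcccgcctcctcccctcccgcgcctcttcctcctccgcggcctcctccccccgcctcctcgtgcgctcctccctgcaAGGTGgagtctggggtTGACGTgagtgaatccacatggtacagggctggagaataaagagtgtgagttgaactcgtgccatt

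TGACGT began at position -64 in FOS, -60 in FOSB and -66 in FOSL2, counting back from -1 at the base before the start. It was looked for after these sequences had been read, and 7.10% of 35116 RefSeq promoters hold it in the same 250 bases. CACCT occurred only in FOSL2, at -82, against 45.4% of promoters. The longer E-box CACCTG (17.5% of promoters), the AP-1 motif TGANTCA (6.57%), the full element TGACGTCA (1.65%, which contains TGACGT) and the serum response element (0.0313%) were not in these 3 windows, which says only that those letters are absent there. A consensus site covered all 250 bases of the FOS and FOSL2 windows and 122 of the 250 of FOSB. The covered bases of FOSB are those farthest from the start and do not include its TGACGT.

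FOS carried the most ZEB1 signal per length of the 4 genes in untreated cells and was the furthest below control under eribulin. Summed over its 7 sites, the untreated libraries held 886 and 893 CPM, those at 24 h 155 and 156 CPM, those at 48 h 262 and 271 CPM and those at 72 h 165 and 179 CPM. The pooled sum was far below control at each time, and higher at 48 h than at 24 and 72 h. Relative to control, the sum was at 17.5%, 30.0% and 19.3%, which are log2 changes of -2.51 (95% interval -2.64 to -2.39), -1.74 (-1.85 to -1.63) and -2.37 (-2.52 to -2.22). Untreated signal per kb of site was 203 CPM at FOS, 145 at FOSB, 137 at FOSL1 and 94.8 at FOSL2.

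FOSB, whose protein is also known in a truncated neuronal form, held 712 and 754 CPM in the untreated libraries, 232 and 220 CPM at 24 h, 336 and 339 CPM at 48 h, then 313 and 352 CPM at 72 h. Its sum was 30.9% of control at 24 h and stayed near 46.1% and 45.4% afterwards (log2 -1.70, -1.12 and -1.14). The window of FOSL1, summed in the same way, differed from both. Its 869 and 894 CPM in untreated cells stood against 738 and 717 CPM at 24 h, 898 and 934 CPM at 48 h, then 1173 and 1097 CPM at 72 h. That is 82.7%, 104% and 129% of control (log2 -0.28, 0.06 and 0.37), and the 48 h interval of -0.01 to 0.12 included 0 while that at 72 h, 0.30 to 0.43, did not. Most sites of this window lie in or nearest to neighbouring genes. Sites 8, 9 and 10 of FOSL1 lie in the gene or over its end. They were at 42.9%, 43.6% and 49.8% of control at 24 h and at 185%, 134% and 125% at 72 h. FOSL2 had the least signal, 237 and 247 CPM in untreated libraries, 167 and 181 CPM at 24 h, 194 and 190 CPM at 48 h, then 161 and 171 CPM at 72 h (log2 -0.48, -0.34 and -0.54).

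**Figure D1:**
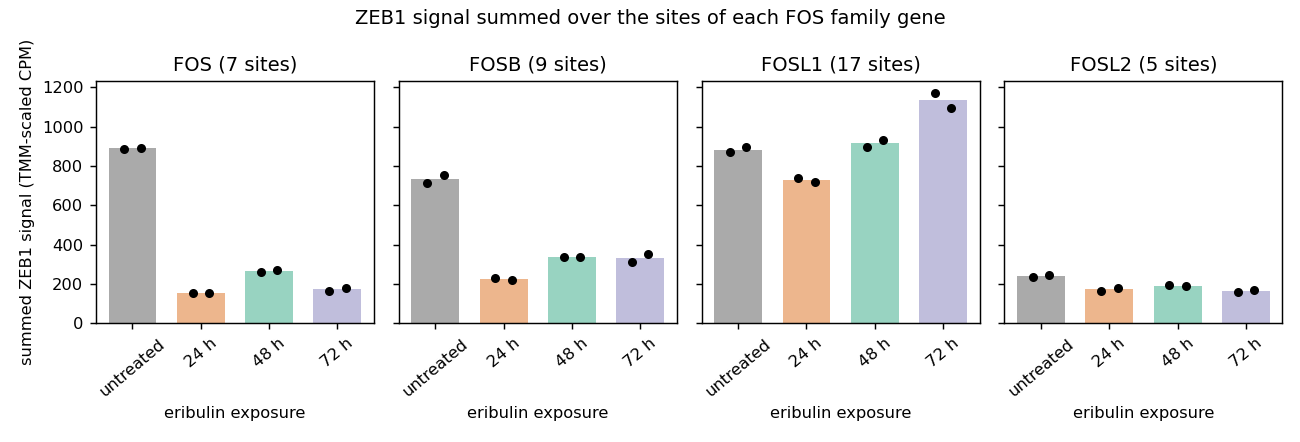
ZEB1 signal summed over the sites of each gene, in TMM-scaled CPM on the vertical axis, for untreated cells and 24, 48 and 72 h of eribulin. The FOSL1 sum takes in sites in or nearest to neighbouring genes. Bars are the pooled pair and points the 2 libraries: FOS stands at 889 CPM untreated and 156 CPM at 24 h, and FOSL1 at 1136 CPM at 72 h.

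These ratios are relative to the other sites of each library, and another scale gives other values for all 4 genes. The peak caller's genome-wide background floor, recovered from the fold and p columns of the deposited lists, was 108%, 101% and 95.2% of control at 24, 48 and 72 h. It is no spike-in, and since the peak names carry the name of replicate 1 it appears to rest on 1 library per condition. Scaling to that floor moved the median log2 change of all tested sites from 0.02 to -0.92 at 24 h, from -0.01 to -1.43 at 48 h and from 0.00 to -1.51 at 72 h. On that scale FOSL1 was lower than control at every time (log2 -1.21, -1.37 and -1.14), so its higher sum at 72 h holds relative to other sites and turns on this scale. FOS was then at log2 -3.45, -3.16 and -3.88, FOSB at -2.63, -2.54 and -2.64, and FOSL2 at -1.41, -1.76 and -2.05. The higher sum of FOSB at 72 than at 24 h (log2 0.555 with TMM) was thus absent on the floor scale (-0.015). For FOS the same comparison went from 0.143 to -0.427.

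At 24 h, 19 of the 38 sites were called lower, against a background of 13.8% of all tested sites, and 1 higher, against 15.5%. The 19 comprised all 7 at FOS, 6 of 9 at FOSB, 5 of 17 at FOSL1 and 1 of 5 at FOSL2. The median log2 change was -2.45 at FOS, -1.59 at FOSB, -0.06 at FOSL1 and -0.58 at FOSL2, and 0.02 over all tested sites. At 48 h, 10 sites were lower (background 8.13%) and 1 higher (11.5%), and the 10 were the 7 of FOS and 3 of FOSB. At 72 h, 11 were lower (background 9.43%), 7 at FOS, 3 at FOSB and 1 at FOSL2, and 3 were higher (13.5%), all at FOSL1. The 3 comparisons share the untreated libraries.

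Counted instead by edgeR's quasi-likelihood test at an adjusted p under 0.05, which compares libraries and not cultures, 25 sites were lower and 3 higher at 24 h (background 26.8% and 28.0% of all tested sites). At 48 h the counts were 17 and 4 (16.9% and 16.8%), at 72 h 18 and 8 (17.0% and 18.9%), and at 72 against 24 h 5 and 18 (16.4% and 19.4%). Nothing is read from these counts, because the 24 h contrast chose the genes.

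**Figure D2:**
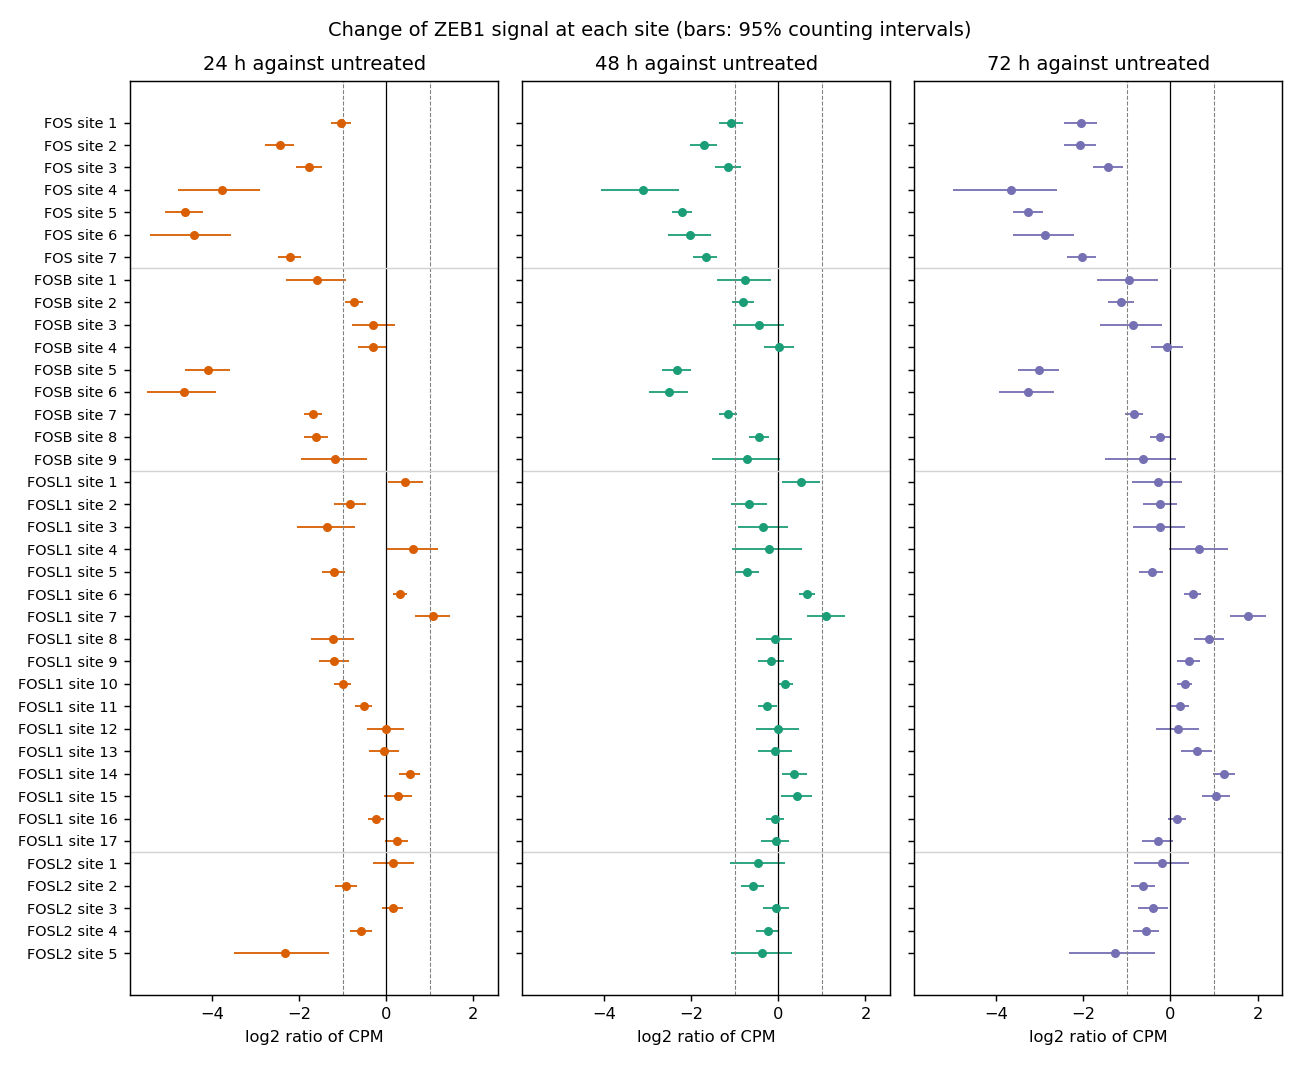
Log2 ratio of CPM to untreated cells at each of the 38 sites, numbered within each gene by coordinate, at 24, 48 and 72 h. Bars are 95% counting intervals, dashed lines mark 2-fold, and all 7 FOS sites lie left of the lower line in each panel while FOSL1 sites spread around 0 with 3 past the upper line at 72 h.

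The sites furthest below control at FOS lay just past the end of the gene. FOS occupies chr14:75278828-75282230 on the plus strand, and its sites are numbered 1 to 7 by coordinate. Site 5 (chr14:75283362-75284463, intergenic, 1.68 kb beyond the gene end) was the strongest of the family and held 34.5% of the gene's untreated signal. Its CPM was 303 and 312 in the untreated libraries, 9.56 and 15.3 at 24 h, 62.7 and 69.4 at 48 h, then 32.2 and 31.7 at 72 h. By pooled CPM the order was untreated, 48 h, 72 h and 24 h. The log2 changes were -4.63 (-5.08 to -4.22), -2.22 (-2.44 to -1.99) and -3.26 (-3.62 to -2.93).

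Its flanking sites showed the same at lower levels. Site 4 (chr14:75282741-75282901, 0.59 kb beyond the gene end) had 37.4 and 40.3 CPM untreated, 4.53 and 1.05 at 24 h, 4.54 and 4.43 at 48 h, then 2.54 and 3.62 at 72 h (log2 -3.78, -3.11 and -3.66). The treated values rest on 11, 12 and 7 pooled counts, and their order among themselves was not detectable at this depth. Site 6 (chr14:75284961-75285277, 2.89 kb beyond the end) had 60.4 and 61.6 CPM untreated, 4.02 and 1.58 at 24 h, 15.9 and 14.0 at 48 h, then 11.01 and 5.43 at 72 h (log2 -4.43, -2.03 and -2.87). Among all 46436 tested sites ordered from the lowest log2 change at 24 h, sites 5, 6 and 4 ranked 10th, 13th and 24th.

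Sites before the start and farther away stayed nearer to control. Site 3 (chr14:75278302-75279066) covers the start site and the promoter printed above: 92.6 and 98.4 CPM untreated went with 25.6 and 30.0 at 24 h, 40.1 and 45.8 at 48 h, then 33.0 and 38.0 at 72 h (log2 -1.78, -1.15 and -1.43). Site 2 (chr14:75276904-75277604, 1.57 kb upstream) lay between, with 131 and 114 CPM untreated, 23.1 and 22.1 at 24 h, 38.5 and 36.9 at 48 h, then 23.7 and 35.3 at 72 h (log2 -2.45, -1.71 and -2.07). Site 7 (chr14:75293922-75294548, 12005 bases beyond the end) had 149 and 154 CPM untreated, 34.7 and 30.0 at 24 h, 46.1 and 48.7 at 48 h, then 35.6 and 38.0 at 72 h (log2 -2.22, -1.67 and -2.04).

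Site 1 of FOS had a time course of its own. At chr14:75258823-75259538, 19.65 kb upstream and intergenic, it held 113 and 112 CPM untreated, 53.8 and 55.9 at 24 h, 54.4 and 51.7 at 48 h, then 27.1 and 27.2 at 72 h. Its pooled signal was level at 24 and 48 h and lower at 72 h (log2 against control -1.04, -1.09 and -2.05). It was the only family site called lower at 72 h than at 24 h (log2 -1.01, interval -1.45 to -0.60), a call at the edge of the 2-fold line: leaving out any of 4 libraries (24 h replicate 2, 48 h replicate 1, 48 h replicate 2 or 72 h replicate 1) gave -0.99 with no family site called lower. The nearest site outside the 20 kb window, 21.44 kb beyond the gene, had 13.1 CPM untreated and log2 changes of -1.28, -1.33 and -0.10.

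FOSB showed the same concentration past its end. The gene lies at chr19:45467996-45475179 on the plus strand. Site 5 (chr19:45475307-45475939, 0.44 kb beyond the end) had 148 and 149 CPM untreated, 8.55 and 8.96 at 24 h, 33.2 and 25.8 at 48 h, then 13.6 and 23.5 at 72 h (log2 -4.09, -2.33 and -3.02). Site 6 (chr19:45476270-45476822, 1.37 kb beyond) had 88.4 and 108 CPM untreated, 4.02 and 3.69 at 24 h, 15.1 and 19.2 at 48 h, then 10.2 and 9.96 at 72 h. Its log2 changes of -4.66 (-5.50 to -3.92), -2.50 and -3.28 include the lowest of the family at 24 h, the 8th lowest of all tested sites, and site 5 ranked 17th.

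The sites around this pair differed from it at 24 h and in what followed. Site 7 (chr19:45478192-45479217, 3.53 kb beyond the end), the strongest of FOSB, had 187 and 193 CPM untreated, 61.9 and 56.4 at 24 h, 86.2 and 84.9 at 48 h, then 98.2 and 115 at 72 h (log2 -1.68, -1.15 and -0.84). Site 8 (chr19:45485319-45485950), which lies in RTN2, a reticulon gene, 340 bp from its nearest end, had 94.3 and 107 CPM untreated, 39.7 and 25.3 at 24 h, and 75.6 and 71.6 at 48 h, then 77.0 and 93.3 at 72 h (log2 -1.62, -0.45 and -0.24). Site 2 (chr19:45455730-45456497, 11.88 kb upstream and nearest to ERCC1, a DNA repair gene) was lowest at 72 h instead, with 111 CPM in each untreated library, 65.4 and 67.5 at 24 h, 62.0 and 65.0 at 48 h, then 44.9 and 57.0 at 72 h (log2 -0.74, -0.81 and -1.13). Without 72 h replicate 1 its last value was -0.96 and no longer called.

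The start of FOSB was weakly occupied. Site 3 (chr19:45467592-45467867, 0.27 kb upstream), which overlaps the promoter window printed above, had 16.7 and 16.8 CPM untreated, 13.6 and 13.7 at 24 h, 12.8 and 11.8 at 48 h, then 7.62 and 10.9 at 72 h. Its 24 and 48 h changes of -0.30 (-0.80 to 0.19) and -0.44 (-1.05 to 0.13) were not detectable at this depth. Site 4 inside the gene had log2 changes of -0.31, 0.01 and -0.07, none with an interval clear of 0. The remaining sites, 1 in ERCC1 and 9 in RTN2, had 17.8 and 11.6 CPM untreated and were at log2 -1.59 and -1.17 at 24 h, the latter -0.88 without 24 h replicate 1.

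**Figure D3:**
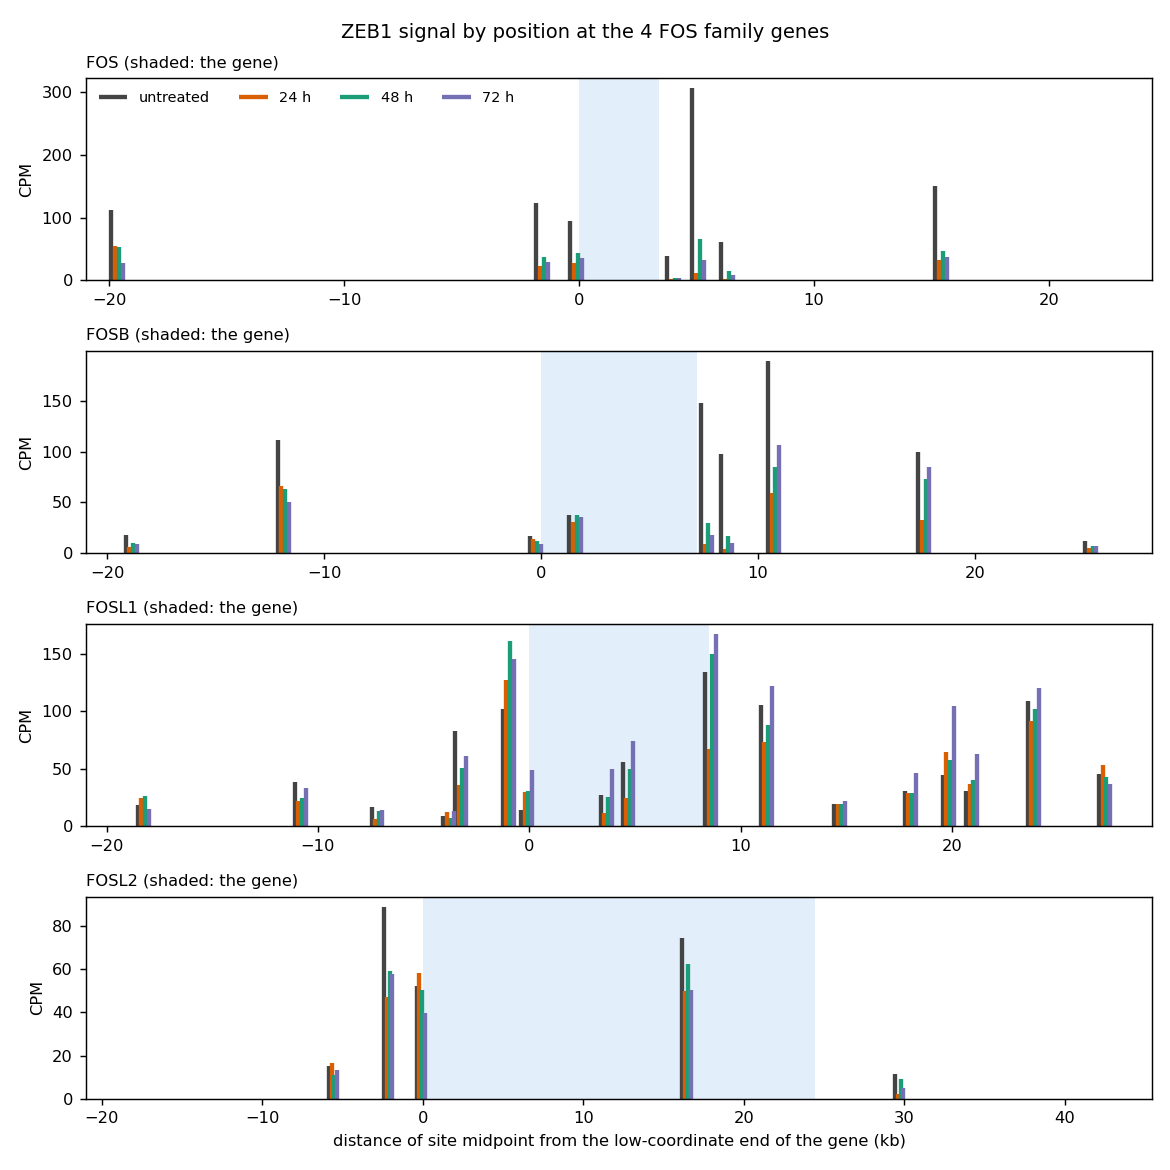
ZEB1 signal (CPM) of each site against the distance of its midpoint from the low-coordinate end of the gene in kb, with the gene shaded and 1 bar per condition. At FOS and FOSB the tallest untreated bars stand just right of the gene, with 307 CPM at FOS site 5, and are smallest at 24 h.

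FOSL1 sits among close neighbours, and only 3 of its 17 sites have their midpoint in it or cover an end of it (chr11:65892049-65900545). These 3 were lowest at 24 h and highest at 72 h. Site 10 (chr11:65900422-65900837), the strongest, covers the high-coordinate end of the gene and had 128 and 141 CPM untreated, 72.9 and 60.1 at 24 h, 144 and 156 at 48 h, then 174 and 160 at 72 h. Its pooled signal was below control at 24 h and above it at 72 h, while the 48 h interval, -0.01 to 0.33, included 0 (log2 -1.01, 0.16 and 0.32). The 24 h call rests on the 2-fold line: without 24 h replicate 2 it was -0.88 and without control replicate 2 it was -0.94.

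The intragenic sites of FOSL1 spanned a wider range. Site 8 (chr11:65895598-65895779) had 27.5 and 26.5 CPM untreated, 12.1 and 11.1 at 24 h, 20.4 and 30.3 at 48 h, then 48.2 and 51.6 at 72 h (log2 -1.22, -0.09 and 0.88). Site 9 (chr11:65896487-65896963) had 53.8 and 57.4 CPM untreated, 25.1 and 23.2 at 24 h, 46.1 and 53.1 at 48 h, then 80.4 and 67.9 at 72 h (log2 -1.20, -0.16 and 0.42). From 24 to 72 h, sites 8, 9 and 10 differed by ratios of 4.31, 3.07 and 2.51. On the background floor scale these 3 sites stayed below control at 72 h (log2 -0.62, -1.08 and -1.18).

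The higher calls of the family were all at FOSL1 and are named here although the naming rule did not choose them. Site 7 (chr11:65891835-65891986, 0.14 kb from the low-coordinate end) had 14.7 and 13.6 CPM untreated, 31.7 and 27.4 at 24 h, 28.0 and 32.5 at 48 h, then 57.6 and 38.9 at 72 h (log2 1.06, 1.09 and 1.78). Its first call was 0.95 without 24 h replicate 1 and its second 0.99 without 48 h replicate 2, each of which left no site called higher, and on the background floor scale it was at 0.13, -0.33 and 0.27. Sites 14 (chr11:65911644-65912112) and 15 (chr11:65912879-65913095), between FOSL1 and C11orf68, had 45.05 and 44.2 CPM and 29.8 and 30.6 CPM untreated, against 105 in each library and 55.9 and 69.7 CPM at 72 h. Their 72 h log2 changes of 1.23 and 1.05 were -0.27 and -0.45 on the background floor scale, and site 15 was at 0.88 without 72 h replicate 2. FOSL1 site 4, not called, would join the higher sites without control replicate 1 (log2 1.04 at 24 h and 1.10 at 72 h).

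Sites 16, 11 and 6 of the FOSL1 window were strong too and stayed within 2-fold of control. Site 6 (chr11:65890495-65891605), in CCDC85B, had 102, 127, 161 and 146 CPM over the 4 conditions (log2 0.31, 0.65 and 0.51). Site 16 (chr11:65915603-65916207, nearest to C11orf68) had 111 and 106 CPM untreated and log2 changes of -0.24, -0.09 and 0.15. Site 11 (chr11:65903028-65903495, 2.72 kb from the high-coordinate end) had 106 and 104 CPM untreated, 77.5 and 69.0 at 24 h, 80.9 and 95.2 at 48 h, then 126 and 118 at 72 h (log2 -0.52, -0.26 and 0.21). Site 5 (chr11:65888538-65889056, 3.25 kb from the low-coordinate end) was called lower at 24 h only, with 82.8, 35.8, 50.4 and 61.3 CPM over the 4 conditions, and so was site 3 in FIBP, with 16.6, 6.44, 13.1 and 14.0 CPM. Counting these and site 4, the 9 sites outside 7 to 11 and 14 to 16, some of them in CTSW, FIBP and CCDC85B, ranged from log2 -1.37 to 0.60 at 24 h and from -0.44 to 0.66 at 72 h. None of the FOSL1 sites was called lower at 48 or 72 h.

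FOSL2 (chr2:28392858-28417317, plus strand) had a promoter site that, with TMM scaling, was not detectably different from control at 24 and 48 h. Site 3 (chr2:28392437-28393031) covers the start and the promoter printed above and had 51.9 and 52.9 CPM untreated, 56.3 and 59.6 at 24 h, 48.4 and 52.4 at 48 h and 39.8 in each library at 72 h (log2 0.15, -0.05 and -0.40). Its 24 and 48 h intervals, -0.10 to 0.39 and -0.35 to 0.24, included 0, and that at 72 h, -0.74 to -0.06, did not. Site 2 (chr2:28390279-28391145, 2.15 kb upstream within the antisense gene FOSL2-AS1), the strongest, had 85.8 and 92.3 CPM untreated, 46.3 and 47.4 at 24 h, 60.5 and 57.6 at 48 h, then 55.0 and 60.7 at 72 h (log2 -0.92, -0.59 and -0.62).

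Site 4 of FOSL2 (chr2:28408958-28409637, inside the gene, 16.44 kb from the start) had 74.5 and 73.6 CPM untreated, 44.3 and 55.4 at 24 h, 64.2 and 60.5 at 48 h, then 47.4 and 53.4 at 72 h (log2 -0.58, -0.25 and -0.56). Site 5 (chr2:28422437-28422640), 5.22 kb beyond the gene end, was the site of this gene furthest below control, with 11.1 and 12.3 CPM untreated, 1.01 and 3.69 at 24 h, 8.31 and 9.60 at 48 h, then 6.77 and 2.72 at 72 h. Its log2 change was -2.33 at 24 h, from 9 pooled counts (-3.51 to -1.33), and -1.27 at 72 h, or -0.79 and not called without 72 h replicate 2. Site 1, in FOSL2-AS1, had 14.9 CPM untreated and log2 changes of 0.16, -0.46 and -0.19.

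The start sites of the 3 genes with a printed promoter thus differed in level and in ratio to control. At 24 h the site over the start of FOS was at 29.2% of control, the site next to the start of FOSB at 81.5% and the site over the start of FOSL2 at 111%. These percentages come from 108, 53 and 225 pooled counts with TMM scaling, and the log2 intervals of the FOSB and FOSL2 sites included 0. The site over the high-coordinate end of FOSL1 was at 49.8%.

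Between 24 and 72 h, 10 of the 38 sites were called higher (background 13.8% of tested sites) and 1 lower (11.0%). The median log2 change was 0.57 in the family and -0.01 over all tested sites. The genes were chosen by their 24 h values, which are the denominator here, so this comparison leans towards higher ratios. Nothing particular to the family is read from it. The 10 called higher were FOS sites 5 and 6, FOSB sites 5, 6 and 8, FOSL1 sites 3, 8, 9 and 10 and FOSL2 site 5. Among the sites past the ends of FOS and FOSB the ratio was 2.59 at FOS site 5, 2.94 at FOS site 6, 2.10 at FOSB site 5, 2.61 at FOSB site 6 and 2.60 at FOSB site 8. The sites there that were not called had ratios of 1.08 (FOS site 4), 1.13 (FOS site 7), 1.80 (FOSB site 7) and 1.45 (FOSB site 9). The first 4 stood at 10.4% (FOS site 5), 13.6% (FOS site 6), 12.4% (FOSB site 5) and 10.3% (FOSB site 6) of control at 72 h. At 48 h those 4 had been at 21.5%, 24.5%, 19.8% and 17.6%. Without 1 library, FOS site 6 (0.97 without 72 h replicate 1), FOSB site 5 (0.65 without 72 h replicate 2), FOSL1 site 3 (0.99 without 24 h replicate 2) and FOSL2 site 5 (0.38 without 24 h replicate 1, 0.26 without 72 h replicate 1) fell short of the 2-fold line. With background floor scaling only 2 sites were higher at 72 than at 24 h, where the median log2 change over all tested sites was -0.58.

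Fewer of these sites carried a deposited peak under eribulin, as did the lists as a whole, which held 46483, 33466, 21816 and 17941 peaks, and the treated libraries held fewer counts in sites than the untreated ones. Of the 38 sites, 36 overlapped a deposited peak in untreated cells, 25 at 24 h, 20 at 48 h, then 19 at 72 h. FOS had a peak at 7, 4, 5 and 4 of its 7 sites, FOSB at 9, 5, 3 and 3 of 9, FOSL1 at 15, 13, 9 and 9 of 17 and FOSL2 at 5, 3, 3 and 3 of 5. The share of all consensus sites with a peak is not given here, so nothing particular to the family is read from these counts. FOS sites 4 and 6 and FOSB sites 5 and 6 had no peak at any treated time, and FOS site 5 had none at 24 h but one at 48 and 72 h. FOSL1 site 7 had no peak in untreated cells and one at 24 and 72 h.

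The fold of these peaks did not rank them as the counts did. In the authors' list for untreated cells, FOS site 7 had a fold enrichment of 20.9, FOSB site 8 of 19.5 and FOS site 1 of 14.9. FOS site 5, with more counts than any of them, had 7.64, FOS site 4 had 2.13 and FOSB site 6 had 2.62. The fold is measured against a local background, and from the fold and p of each entry that background can be recovered as a pileup, the number of sequenced pieces covering a position. As the peak names carry replicate 1, these values appear to belong to that library of each condition.

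In untreated cells this local background was high around the start of FOS (19.1 at site 3) and past the ends of FOS and FOSB. It was 29.0 at FOS site 4, 26.2 at site 5, 26.0 at site 6, 26.7 at FOSB site 5, 26.9 at site 6 and 25.3 at site 7, against a median of 1.50 over 46455 untreated peaks and a floor of 0.598. At FOS site 4 it was 48.5 times the floor, a level reached by 0.177% of all untreated peaks. At the outer sites it was lower, 5.92 at FOS site 1 and 2.50 at FOSB site 9. The use of an IgG library in peak calling is not stated. Whether this background is independent of the counts at the sites was not tested, so it is not read as a second result beside them.

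Under eribulin the local background at FOS and FOSB was nearer to that of other peaks than in untreated cells. FOS peaks had 1.54 to 2.00 at 24 h, 1.84 to 2.60 at 48 h and 1.32 to 1.83 at 72 h, against medians of 1.31, 1.38 and 1.38 over all peaks. At FOS site 5 it was 43.8 times the floor in untreated cells, 3.97 times at 48 h and 2.98 times at 72 h. FOSB peaks had 1.69 to 2.33, 2.29 to 2.78 and 1.84 to 2.45, still above those medians. At 48 h, the level of FOSB site 7 was reached by 11.2% of all peaks and that of site 2 by 18.2%. FOSL1 peaks kept a raised background, with a median of 12.2 in untreated cells, 6.79 at 24 h, 6.16 at 48 h, then 8.57 at 72 h. FOSL2 peaks had medians of 5.45, 4.24, 3.47 and 2.94. Where a site had no peak at a time, no value could be recovered.

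**Figure D4:**
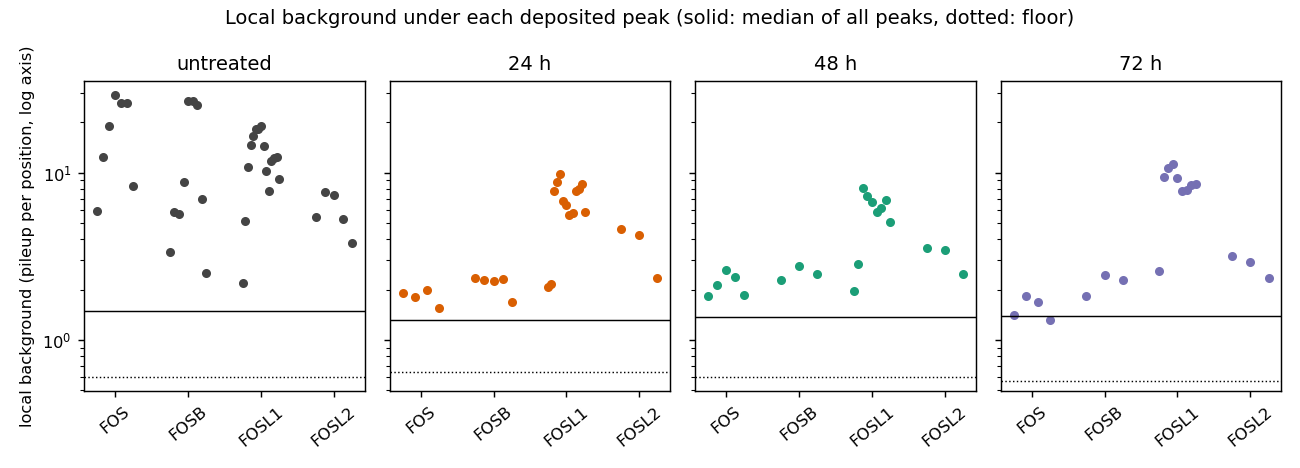
Local background pileup under each deposited peak at the 4 genes (log axis), by condition, with the median of all peaks as a solid line and the genome-wide floor as a dotted line. FOS and FOSB peaks reach 29.0 and 26.9 in untreated cells and lie between 1.32 and 2.78 in the treated lists, while FOSL1 peaks stay mostly above 5.

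The other genes of the AP-1 pathway were described in the same windows. At 10 partner genes (JUN, JUNB, JUND, BATF, BATF2, BATF3, ATF2, ATF3, ATF7 and JDP2) there were 54 sites, 48 of them tested. Of these 16 were lower and 2 higher at 24 h (background 13.8% and 15.5% of all tested sites), 12 and 1 at 48 h (8.13% and 11.5%), then 16 and 2 at 72 h (9.43% and 13.5%), with medians of -0.70, -0.39 and -0.67. JUN, the main partner of FOS, had its strongest site at chr1:58783895-58784683, 0.24 kb from the gene, with 165, 96.0, 132 and 142 CPM over the 4 conditions (log2 -0.78, -0.32 and -0.22). A further JUN site at chr1:58779730-58780366 had 126, 42.2, 38.8 and 69.6 CPM (log2 -1.57, -1.69 and -0.85), and the strongest JUND site (chr19:18274871-18275723) 140, 44.3, 70.2 and 74.4 CPM (log2 -1.67 at 24 h).

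Summed windows of the partners stood at 42.8% of control at 24 h for JUND, 47.4% for JUN, 52.4% for ATF3, a stress-induced repressor, and 75.1% for JUNB. BATF and JDP2, which lie on the same chromosome as FOS, were at 44.6% and 121%. Nearer to control were BATF2 at 109%, ATF2 at 105% and ATF7 at 85.3%. FOS itself was at 17.5%, lower than any of the 10, of which BATF3 was the lowest at 41.9%. Since FOS was chosen by its low 24 h values, nothing is read from its place in this order.

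The 10 factors and kinases that act on FOS transcription or protein (SRF, ELK1, ELK3, ELK4, MRTFA, MRTFB, CREB1, MAPK3, RPS6KA1 and RPS6KA3) had 41 tested sites, with 3 lower and 5 higher at 24 h (background 13.8% and 15.5%), 1 and 4 at 48 h (8.13% and 11.5%), then 0 and 4 at 72 h (9.43% and 13.5%; medians 0.12, -0.05 and -0.05). The site next to SRF, which encodes serum response factor (chr6:43170810-43171507), had 81.6, 138, 88.9 and 77.9 CPM (log2 0.76, 0.12 and -0.07), a second SRF site inside the gene (chr6:43174278-43174900) 89.3, 83.4, 79.2 and 70.0 CPM, and a site in MRTFA, an actin-regulated partner of SRF, 77.4, 45.8, 81.0 and 77.4 CPM.

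The 11 AP-1 target genes (MMP1, MMP3, MMP9, PLAU, PLAUR, CCND1, CXCL8, IL6, LIF, HMOX1 and TIMP1) had 50 tested sites at 10 of them, MMP1 having none. At 24 h 9 were lower (background 13.8%) and 1 higher (15.5%), at 48 h 5 (8.13%) and 3 (11.5%), and at 72 h 4 (9.43%) and 7 (13.5%), with medians of -0.39, -0.23 and -0.09. The strongest were at IL6, a cytokine gene (chr7:22732558-22733172, 95.9, 59.2, 58.3 and 103 CPM), LIF, a cytokine of the same family (chr22:30235712-30236191, 81.6, 41.7, 49.7 and 43.8 CPM), and PLAUR, the urokinase receptor (chr19:43668405-43669091, inside the gene, 77.7, 118, 73.2 and 52.5 CPM).

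Likeness to FOS and FOSB was measured over 4077 protein-coding genes with at least 3 sites and 100 CPM in untreated cells, as the summed absolute difference between the shares that the 4 conditions take of a gene's signal (0 for identical patterns). The 5 nearest to FOS were CCN2 (distance 0.115), a YAP target, EGR1 (0.145), a zinc finger immediate early gene, LOC124901780 (0.204), CIST1 (0.211) and LTBR (0.216), the lymphotoxin beta receptor gene. EGR1 had 932 CPM untreated and stood at 21.02%, 34.2% and 34.6% of control, and CCN2 had 144 CPM and stood at 19.2%, 19.2% and 19.2%. The 5 nearest to FOSB were LITAF (0.0293), BHLHE40 (0.0468), a bHLH repressor, DUSP1 (0.0495), a MAP kinase phosphatase, SPINT1 (0.0505) and RHOV (0.0518), of which SPINT1 and RHOV share 4 sites. DUSP1 held 1010.0 CPM untreated and 31.1%, 39.0% and 43.7% of it afterwards. These are descriptions over 4 pooled conditions.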

How the data were processed

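ZEB1 CUT&RUN libraries of untreated and eribulin-treated MDA cells were analysed from the deposited count table, whose values are raw counts per consensus site on hg38; the sources used here do not give the unit counted, read or fragment. The deposited peak lists, 1 per condition, hold a fold enrichment (ratio), -log10 p and q values (p-values and q-values of the peak caller) and a score. Per the submitters' processing notes, the tools included MACS2 2.1.1, Bowtie2 2.2.6, featureCounts, bedtools 2.30.0, cutadapt 2.4, deepTools, Picard and bcl2fastq 2.20.0.422, for which no role or order is given. The consensus intervals equalled the rows of the count table at all 52981 sites.

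Sites were scaled with TMM factors of edgeR 4.0.16 (R 4.3.3) over the 46436 sites passing filterByExpr, and the libraries of a condition were pooled. CPM intervals and ratios are exact 95% intervals of the pooled counts. edgeR quasi-likelihood and DESeq2 1.42.0 with Benjamini-Hochberg adjustment at 0.05 served as alternatives only, because a condition is 1 sample. edgeR was tested on simulated data. The background was solved from fold and -log10 p under a Poisson model, as the whole-number pileup that fits both with 1 added to pileup and background. All 11593 untreated entries used for the floor, and 46455 of 46483 untreated peaks for the local background, gave a solution. Where a peak in the list overlapped a site, the site was counted as having a peak. Genes and promoters came from RefSeq GRCh38.p14, which matched all 4 genes, all 31 list symbols and 3 of 4 promoters, and no genome sequence was used. The named sites are, per gene, the 3 with the highest untreated CPM and any at least 4-fold changed; the other sites were described after their values were seen, so that every gene's sites are accounted for. The members and lists were chosen with earlier results of these data known, and 2 further listed genes are not reported here. Same-numbered libraries did not deviate together (correlations from -0.00461 to 0.0139 over 6 pairs of conditions).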

Additional observations from a re-analysis of the deposited data

How the results depend on the processing

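DESeq2 size factors, total counts and no low-count filter left every count of called family sites within 1.5 times of its main value. Factors taken from the sites of lowest count gave 0 sites higher at 24 h, 0 higher at 48 h and 0 lower at 72 against 24 h. Background floor scaling, which shifts nearly all sites down, gave 0 higher at 24 h, 35 lower and 0 higher at 48 h, 31 lower and 0 higher at 72 h, and 5 lower and 2 higher at 72 against 24 h, and turned the called gains of FOSL1 site 7 at 48 h (-0.33) and of sites 14 (-0.27) and 15 (-0.45) at 72 h. Calls by edgeR (adjusted p under 0.05, any fold, comparing libraries and not conditions) numbered 3 higher at 24 h, 17 lower and 4 higher at 48 h, 18 lower and 8 higher at 72 h, and 5 lower and 18 higher at 72 against 24 h. With the replicate block they numbered 3, 16 and 3, 18 and 8, and 5 and 18. DESeq2 called 2, 2 and 5 higher at 24, 48 and 72 h. A 50 kb window gave 2 higher at 24 h and 3 at 48 h, a 10 kb window 1 higher at 72 h and 0 lower at 72 against 24 h. Leaving out each library gave 18 to 19 lower and 0 to 2 higher at 24 h, 10 lower and 0 to 1 higher at 48 h, 11 to 12 lower and 2 to 4 higher at 72 h, and 0 to 1 lower and 8 to 10 higher at 72 against 24 h. Requiring a peak over at least 50% of a site gave 10 sites at 48 h and 9 at 72 h. Using log2 changes in place of shares named the same 5 genes for FOS and for FOSB. The cause of these shifts was not tested. On the background floor scale the median log2 change over all tested sites was -1.43 at 48 h and -1.51 at 72 h, below the lower 2-fold line. Shares of all tested sites are not given for the other scalings, the replicate block, DESeq2 or the left-out libraries. Nothing about the family is therefore read from these counts.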
